A study of Mus musculus with 4 samples.

Results

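The nuclear factor I (NFI) family of transcription factors was followed through its 4 mouse genes, Nfia, Nfib, Nfic and Nfix. A probe set is a group of short probes read together. Members here were the probe sets of the array whose platform annotation names exactly 1 gene, that gene being 1 of these 4. The rule found 23 probe sets among the 45101 of the table: 6 for Nfia, 7 for Nfib, 5 for Nfic and 5 for Nfix. The 4 genes were among 18193 with a probe set annotated to them alone. The values come from 4 arrays hybridised with RNA of neuroepithelial cells, the dividing precursors of the forebrain, cultured from the telencephalon of embryos of the ICR mouse strain. In the E14.5 group, 2 arrays, the cells were taken at embryonic day 14.5 and cultured for 4 days. In the E11.5 group, 2 arrays, the cells were taken at embryonic day 11.5 and cultured for 1 day. No genetic change is given in the labels for either group, and both cultures received 10 ng/ml basic FGF, which keeps such precursors dividing, on surfaces coated with poly-L-ornithine and fibronectin. The older cells were also cultured longer, so embryonic age and time in culture cannot be told apart. The labels do not say whether the 2 arrays of a group came from separate embryos or cultures; p-values then cover no more than array-to-array spread, which could be technical.

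NFI proteins bind DNA as dimers through a conserved amino-terminal domain and activate or repress transcription through variable carboxy-terminal parts. In the developing forebrain and spinal cord, Nfia, Nfib and Nfix are known for the switch of precursors from making neurons to making glia: mice lacking them form fewer astrocytes and less glial fibrillary acidic protein in the embryonic brain. Nfic is best known for its role in tooth root formation.

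Promoter sequences of the members are shown first, because they show the letters at the annotated starts of the genes described below and whether the recognition letters of the family itself occur there. The RefSeq table, build GRCm38.p6, held 4 start sites for Nfix, 1 for Nfia and 1 for Nfic; Nfib is named only. Each window printed covers the 250 bases before an annotated start, read 5′ to 3′ along the gene's own strand. Capitals mark NFI half-sites (TTGGC, or GCCAA on the other strand) and GC boxes (GGGCGG, or CCGCCC on the other strand), the site of Sp-family factors; the motifs did not overlap in any of these windows.
Nfix, window 2, chr8:84775829-84776078, minus strand: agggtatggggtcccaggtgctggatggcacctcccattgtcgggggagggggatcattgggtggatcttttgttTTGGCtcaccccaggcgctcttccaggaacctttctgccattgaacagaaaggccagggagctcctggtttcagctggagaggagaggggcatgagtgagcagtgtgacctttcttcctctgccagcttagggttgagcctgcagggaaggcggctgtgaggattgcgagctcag
Nfix, window 4, chr8:84772876-84773125, minus strand: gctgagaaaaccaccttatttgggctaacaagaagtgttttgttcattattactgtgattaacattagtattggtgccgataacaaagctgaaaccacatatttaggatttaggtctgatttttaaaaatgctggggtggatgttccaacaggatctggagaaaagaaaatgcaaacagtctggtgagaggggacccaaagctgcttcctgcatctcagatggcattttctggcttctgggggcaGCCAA
Nfic, chr10:81427174-81427423, minus strand: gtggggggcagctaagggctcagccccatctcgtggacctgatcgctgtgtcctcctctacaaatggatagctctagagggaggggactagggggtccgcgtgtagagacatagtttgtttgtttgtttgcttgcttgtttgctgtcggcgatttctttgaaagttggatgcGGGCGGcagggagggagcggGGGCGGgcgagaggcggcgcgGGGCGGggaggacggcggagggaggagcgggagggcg
Nfia, chr4:97581693-97581942, plus strand: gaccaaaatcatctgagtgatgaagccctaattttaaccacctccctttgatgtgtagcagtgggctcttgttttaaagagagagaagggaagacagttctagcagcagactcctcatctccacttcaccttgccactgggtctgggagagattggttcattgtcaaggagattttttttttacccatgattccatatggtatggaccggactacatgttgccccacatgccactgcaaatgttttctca
Of the 4 Nfix windows, numbered from the start farthest upstream, windows 2 and 4 each held 1 half-site and are printed. Windows 1 and 3 are not printed: window 1 held neither motif, and window 3 held 2 GC boxes and no half-site. The Nfic window held 3 GC boxes and no half-site, and the Nfia window held neither motif. Half-sites occurred in 41.5% and GC boxes in 32.7% of the 32851 windows of this length in the table, so both are common letters. The full palindrome, TTGGC followed after 5 bases by GCCAA, occurred in 12 windows of the table, none of them at a member. CpG dinucleotides numbered 19 in the Nfic window, 1 in the Nfia window and 11, 4, 7 and 1 in the 4 Nfix windows in order. A match is a description of the letters, and the arrays do not measure which start was used.

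At the brightest probe set of each gene, NFI signal was higher in the older cells for all 4 genes, with the largest difference at Nfix. Averaged over its probe sets, Nfib did not pass (0.39, limma adjusted p = 0.11). All arrays were brought to 1 trimmed mean, so higher and lower mean relative to the bulk of probe sets. Of the 23 probe sets, 19 passed a filter on dim probe sets (mean scaled signal of at least 27.3) and were tested with limma on log2 of the scaled signal plus 12.8. At an adjusted p of 0.05, 9 of the 19 were higher in E14.5 cells and 0 were lower; at that threshold 11.1% of all 27022 tested probe sets were higher and 12.6% lower, together 23.7%. The 9 came from all 4 genes: 2 of 6 tested for Nfia, 3 of 7 for Nfib, 1 of 2 for Nfic and 3 of 4 for Nfix. The arrays of the 2 groups did not overlap, with E14.5 above E11.5, at 16 of the 19 tested probe sets, against 30.1% of all tested probe sets above and 31.9% below. Probe sets of 1 gene share its transcripts and are not independent. At the level of genes, each read at the brightest of its tested probe sets (its representative), 4 of 4 were higher, against 14.3% of 12952 genes higher and 13.6% lower. The median log2 difference of the 19 was 0.76, against -0.011 over all tested probe sets. Without E11.5 replicate 2 the number higher was 14 instead of 9. As deposited, with no scaling, the median over all tested probe sets moved to -0.71, the share of higher among all calls from 47.0% to 7.51%, and 3 of the 19 NFI probe sets were higher and 0 lower; those 3 were probe sets of Nfix.

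**Figure D1:**
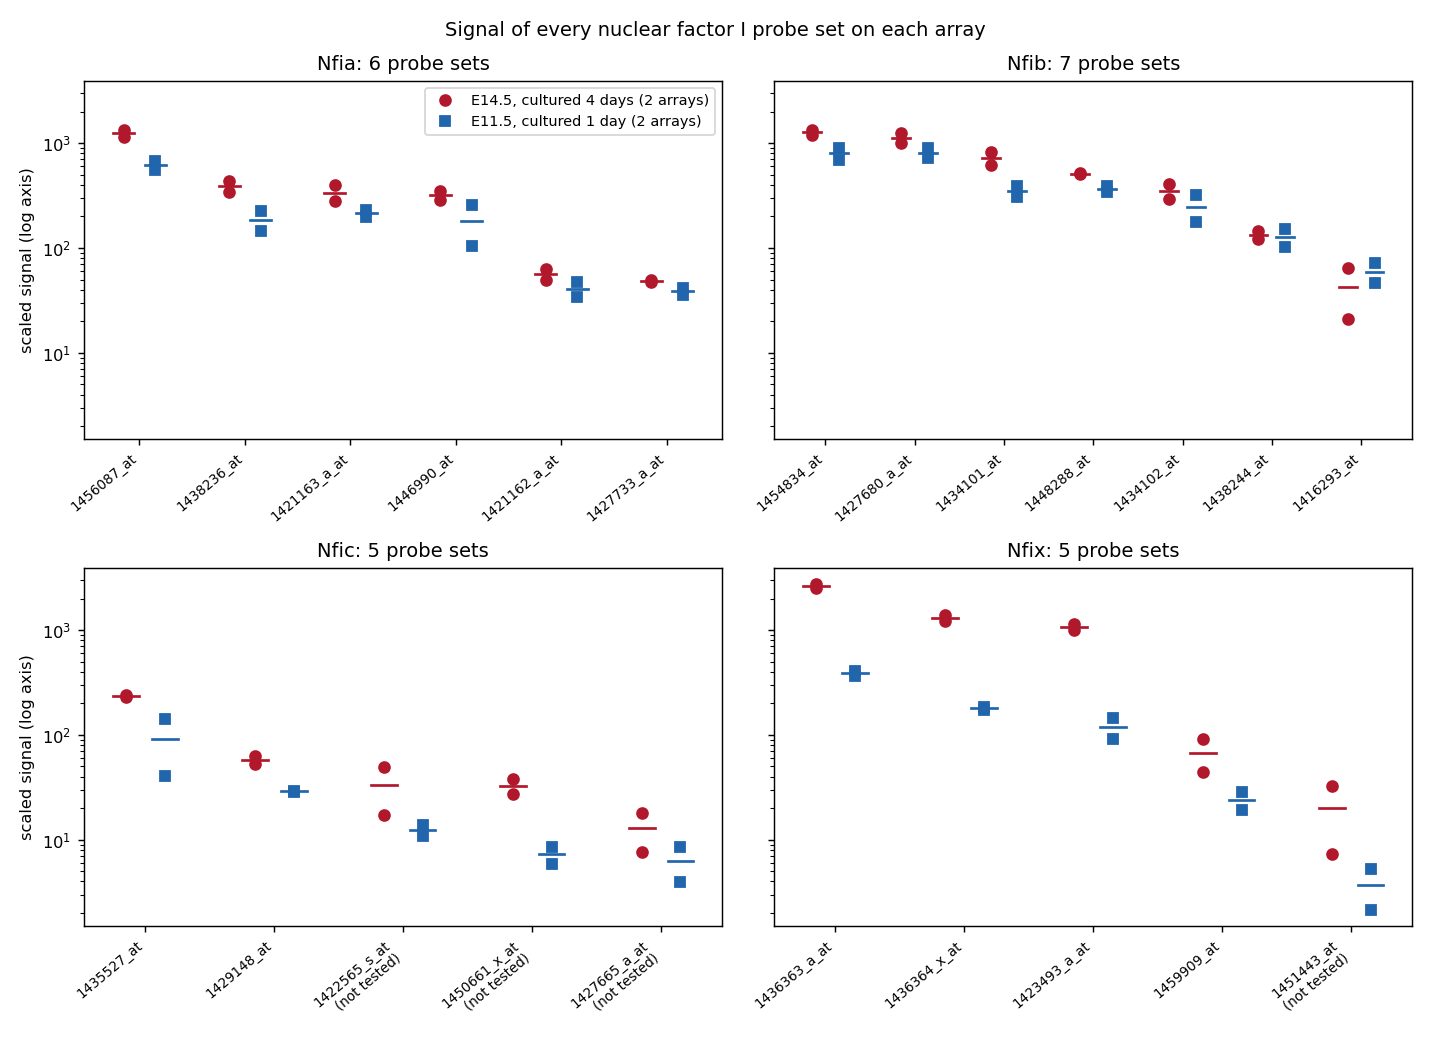
Scaled signal, on a log axis, of each of the 23 NFI probe sets on the 2 E14.5 arrays (circles) and the 2 E11.5 arrays (squares), in 1 panel per gene; short lines are group means. The circles lie above the squares at all 5 Nfix probe sets and all 6 Nfia probe sets, while the groups overlap at 3 Nfib probe sets and 1 Nfic probe set. Levels of different probe sets are not comparable.

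Nfix, the member best known for holding neural stem cells in check and driving late differentiation, had the largest differences of the family. Its brightest probe set, 1436363_a_at, read 2742 and 2547 scaled units on the E14.5 arrays and 362 and 411 on the E11.5 arrays. Both E14.5 values were far above both E11.5 values. The means were 2644 ± 138 and 387 ± 34.5 (SD, n = 2 arrays each), a 6.83-fold ratio, and the log2 difference was 2.73 ± 0.13 (SE; limma adjusted p = 1.1e-06). That difference ranked 136 from the top among the 27022 tested probe sets. The second Nfix probe set, 1436364_x_at, had 1404 and 1214 in E14.5 cells against 174 and 184 in E11.5 cells, a log2 difference of 2.78 ± 0.15. Its _x_at suffix marks probe sets in which probes can also match other transcripts. This probe set was designed on the same expressed sequence as the first, so the pair are not independent readings. Another bright one, 1423493_a_at, had 1156 and 1007 in E14.5 cells against 92.5 and 146 in E11.5 cells, a log2 difference of 3.08 ± 0.20. These 3 probe sets therefore gave ratios of means between 6.83 and 9.06.

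The dimmer Nfix probe sets pointed the same way with less precision. Probe set 1459909_at had 90.5 and 44.2 in E14.5 cells and 19.4 and 28.7 in E11.5 cells. Its E11.5 mean of 24.0 lay below the filter, which it passed only through the E14.5 arrays. The groups did not overlap, but the log2 difference of 1.07 ± 0.37 did not pass (limma adjusted p = 0.060), with a 95% interval from 0.25 to 1.89. It passed without E14.5 replicate 2 (1.5) and without E11.5 replicate 2 (1.25), and was 0.64 without E14.5 replicate 1. The remaining probe set, 1451443_at, fell below the filter, with 32.6 and 7.33 in E14.5 cells against 5.24 and 2.16 in E11.5 cells; fitted without a filter, its difference was 0.88 (limma adjusted p = 0.26). Averaged over its 4 tested probe sets on the log2 scale, Nfix differed by 2.42 ± 0.17 (limma adjusted p = 8.6e-06).

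Nfia, which is induced early in glial fate and is required for it in the spinal cord, was about 2-fold higher in E14.5 cells at its brightest probe set. Probe set 1456087_at had 1148 and 1342 in E14.5 cells and 551 and 680 in E11.5 cells. The groups did not overlap, the means were 1245 ± 137 and 616 ± 91.4 (SD, n = 2 arrays each), and the log2 difference was 1.00 ± 0.15 (limma adjusted p = 0.0010). Probe set 1438236_at had 345 and 434 against 146 and 227, a log2 difference of 1.03 ± 0.22 with limma adjusted p = 0.0069, again E14.5 first. That call was lost with no variance trend and as deposited (0.29).

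The other 4 Nfia probe sets had E14.5 values above E11.5 values on every array but did not pass the test. Probe set 1421163_a_at had 278 and 397 in E14.5 cells against 196 and 232 in E11.5 cells, and just missed (0.61 ± 0.20, limma adjusted p = 0.051). It passed without E14.5 replicate 1 (0.86), without E11.5 replicate 2 (0.73), with quantile normalization (0.66) and with the larger pseudocount (0.55). Probe set 1446990_at had 285 and 354 in E14.5 cells against 105 and 260 in E11.5 cells, a difference of 0.89 ± 0.32 (limma adjusted p = 0.077). The E11.5 arrays were far apart: the difference was 0.28 without E11.5 replicate 1, and it passed when E11.5 replicate 2 (1.49) or E14.5 replicate 1 (1.04) was left out. The dimmest 2, 1421162_a_at and 1427733_a_at, had means of 56.0 and 48.4 in E14.5 cells against 40.4 and 38.6 in E11.5 cells. Their intervals, -0.29 to 1.05 and -0.40 to 0.91, include 0. Nfia averaged over its 6 probe sets differed by 0.69 ± 0.19 (limma adjusted p = 0.022).

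Nfib, which acts with Nfia in cortical glia and in the tracts that cross the midline, had the smallest difference of the 4 genes at its brightest probe set and the least uniform readings. Probe set 1454834_at had 1327 and 1209 in E14.5 cells and 693 and 906 in E11.5 cells. The groups did not overlap, the means were 1268 ± 83.2 and 799 ± 151 (SD, n = 2 arrays each), and the log2 difference was 0.67 ± 0.15 (limma adjusted p = 0.011). Probe set 1434101_at, designed on the same sequence, had 625 and 818 in E14.5 cells against 305 and 390 in E11.5 cells. Its difference was 1.02 ± 0.18 (limma adjusted p = 0.0025). Another of that sequence, 1434102_at, had overlapping groups and did not pass (0.51 ± 0.26, limma adjusted p = 0.19). Probe set 1448288_at had 507 and 520 against 343 and 389, E14.5 first, and passed narrowly (0.48 ± 0.15, limma adjusted p = 0.042). That last call was lost in each fit that left out an array of E14.5 (0.49 without replicate 1, 0.46 without replicate 2) and without E11.5 replicate 1 (0.39). It was also lost with median scaling (0.44), with no filter and with no variance trend, and its sign turned as deposited (-0.28).

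Among the 4 Nfib probe sets that did not pass, 3 had overlapping groups. Probe set 1427680_a_at did not overlap, with 1245 and 1013 in E14.5 cells against 730 and 898 in E11.5 cells (0.47 ± 0.16, limma adjusted p = 0.057), and it passed without E14.5 replicate 2 (0.61) and without E11.5 replicate 2 (0.61). Probe set 1434102_at had 404 and 293 in E14.5 cells against 176 and 318 in E11.5 cells, a difference of 0.51 ± 0.26, which became 0.92 and passed without E11.5 replicate 2 and was 0.11 without E11.5 replicate 1. Probe set 1438244_at read 121 and 145 in E14.5 cells and 102 and 151 in E11.5 cells, a difference of 0.085 ± 0.23 that turned negative without E14.5 replicate 2 (-0.035) or E11.5 replicate 1 (-0.17). The dimmest, 1416293_at, was the single tested member with a negative difference: 21.2 and 64.6 in E14.5 cells against 46.8 and 72 in E11.5 cells (-0.47 ± 0.40), and 0.12 without E14.5 replicate 1. It was designed on the same expressed sequence as 1448288_at, which was higher, so probe sets of 1 gene disagreed here in sign, though the lower one did not pass. Averaged over its 7 probe sets, Nfib differed by 0.39 ± 0.17 and did not pass (limma adjusted p = 0.11).

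**Figure D2:**
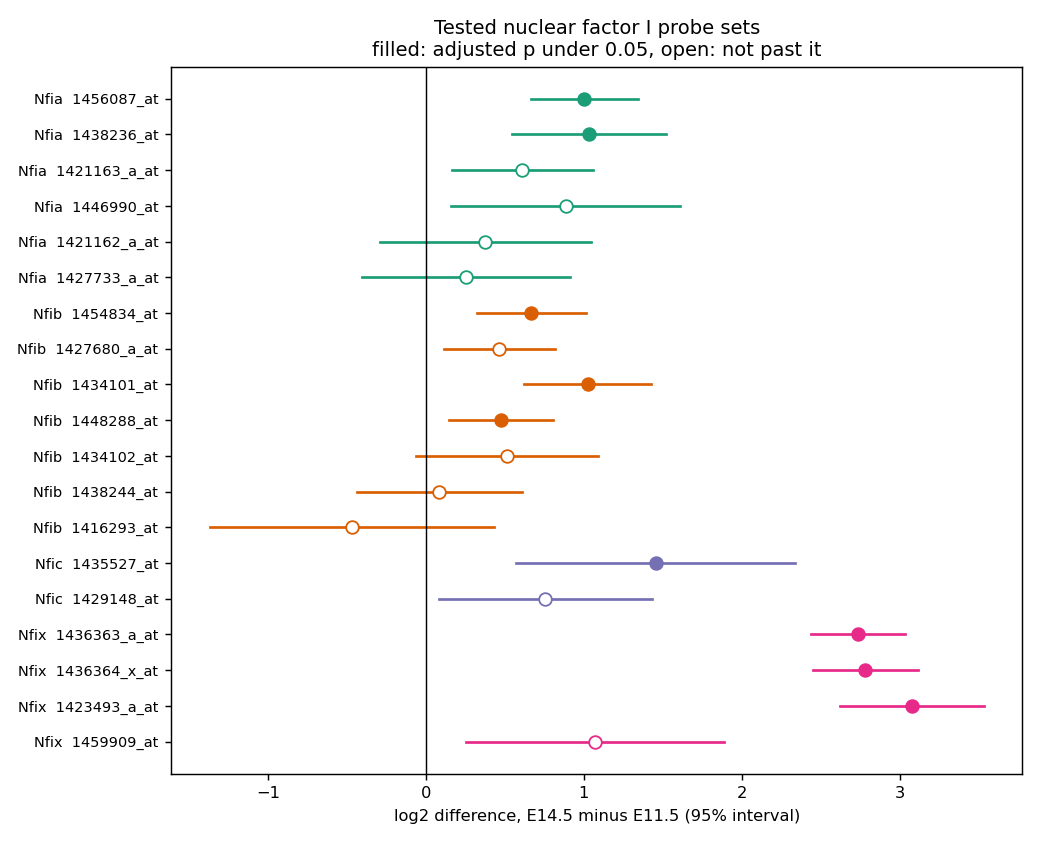
Log2 difference, E14.5 minus E11.5, of the 19 tested NFI probe sets with 95% intervals from the limma fit; filled circles passed an adjusted p of 0.05. The 3 brightest Nfix probe sets lie between 2.73 and 3.08, apart from all others, which lie between -0.47 and 1.46.

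Nfic was measured at low signal, and only 2 of its 5 probe sets could be tested. Probe set 1435527_at had 241 and 231 in E14.5 cells and 142 and 40.2 in E11.5 cells. The E14.5 arrays were nearly equal and the E11.5 arrays far apart, without overlap between groups. The means were 236 ± 6.68 and 91.3 ± 72.2 (SD, n = 2 arrays each), and the log2 difference was 1.46 ± 0.40 (limma adjusted p = 0.023). It was 2.23 without E11.5 replicate 1 and 0.68 without E11.5 replicate 2, so its size depends on which E11.5 array is kept. Probe set 1429148_at had 52.6 and 63.2 in E14.5 cells against 28.5 and 29.3 in E11.5 cells, without overlap, and did not pass (0.76 ± 0.30, limma adjusted p = 0.10). The 3 untested ones were 1422565_s_at, with 49.4 and 17.3 in E14.5 cells against 13.7 and 10.9 in E11.5 cells, 1450661_x_at, with 27.2 and 38.3 against 8.62 and 5.90, and 1427665_a_at, with 18.0 and 7.65 against 3.93 and 8.47. In the fit without a filter their differences were 0.79, 1.18 and 0.41, none past the threshold (limma adjusted p = 0.34, 0.076 and 0.51). The suffixes _s_at and _x_at mark probe sets in which probes can also match other transcripts. Averaged over its 2 tested probe sets Nfic differed by 1.11 ± 0.26 (limma adjusted p = 0.010).

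The sizes of the 4 differences were then set against each other. To compare their changes independently of the scaling of an array, the log2 signal of 1 gene's representative was subtracted from that of another on the same array, for all 6 pairs. Both the level of such a difference and its change between groups are those of the chosen probe sets: other Nfix probe sets differed by 1.07 to 3.08 and other Nfib probe sets by -0.47 to 1.02, so another choice would give other changes. Nfix minus Nfib was 1.04 and 1.07 on the E14.5 arrays and -0.91 and -1.12 on the E11.5 arrays, a change of 2.07. Nfix minus Nfia was 1.25 and 0.92 on the E14.5 arrays and -0.59 and -0.71 on the E11.5 arrays, a change of 1.73. Both changes were many times the gap between arrays of a group, which was at most 0.33. Nfix minus Nfic changed by 1.28, but from 0.42 to 2.14 according to which E11.5 array was left out.

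Nfib and Nfia were not distinguishable in size of change: Nfib minus Nfia was 0.21 and -0.15 on the E14.5 arrays and 0.32 and 0.41 on the E11.5 arrays. That change of -0.34 was smaller than the 0.36 between the E14.5 arrays. Nfic minus Nfia (0.45) and Nfic minus Nfib (0.79) had overlapping groups and turned negative without E11.5 replicate 2 (-0.47 and -0.18). With 2 arrays against 2, the two-sided exact permutation test cannot go below p = 0.33; the 4 pairs without overlap reached that value and the other 2 gave p = 1.0, and after adjustment over the 6 pairs the values were 0.50 and 1.0. An exact test of this size therefore cannot call any pair unequal.

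**Figure D3:**
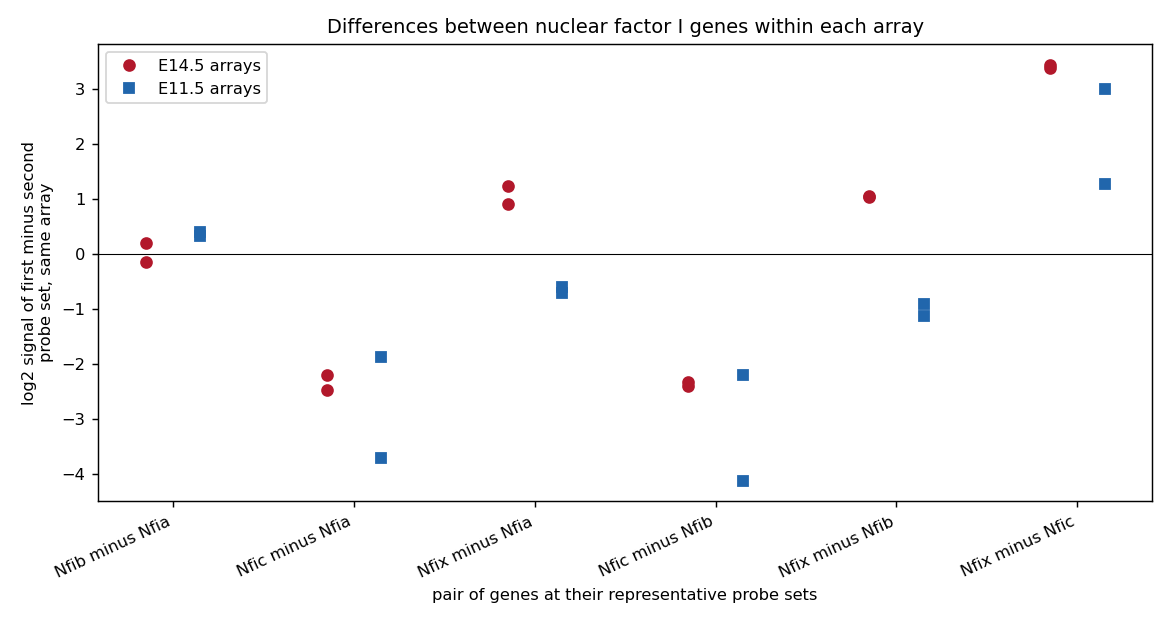
Log2 signal of 1 NFI gene minus that of another on the same array, at their representative probe sets, for the E14.5 arrays (circles) and the E11.5 arrays (squares). Nfix minus Nfia and Nfix minus Nfib lie above 0 on both E14.5 arrays and below 0 on both E11.5 arrays, while the E11.5 points of each pair with Nfic lie 1.72 to 1.93 apart.

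Regulators and partners of NFI proteins moved in both directions. Of 9 genes listed, all were tested: 5 were higher, 2 lower and 2 did not pass. Over all 12952 genes 14.3% were higher and 13.6% lower. The median log2 difference of the list was 1.07, against 0.029 over all genes. As deposited, with no scaling, 2 were higher: Sox9 (0.62), Notch1 (0.73) and Zbtb20 (0.33) lost their calls. Sox9, a transcription factor that induces Nfia and then works with its protein at glial genes, had 942 and 1498 in E14.5 cells against 386 and 519 in E11.5 cells (1.38 ± 0.22, limma adjusted p = 0.0013). The receptor Notch1, whose signalling is known to induce Nfia, had 2310 and 2224 in E14.5 cells against 760 and 826 in E11.5 cells (1.5 ± 0.12). Both were higher on each E14.5 array than on either E11.5 array. Rbpj, the DNA-binding effector of Notch, did not pass (677 and 750 in E14.5 cells, 799 and 865 in E11.5 cells; -0.22 ± 0.14).

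Olig2, which restrains NFIA activity in the oligodendrocyte lineage, rose by 3.84 ± 0.18, and its lineage partner Sox10, an antagonist of NFIA at astrocyte genes, by 4.16 ± 0.33. Zbtb20, a repressor that promotes astrocyte formation together with Sox9 and Nfia, also rose (1.07 ± 0.17), with 6 of its 9 tested probe sets higher. Pax6, reported to regulate NFI genes in cortical progenitors, had 323 and 243 in E14.5 cells against 503 and 511 in E11.5 cells (-0.83 ± 0.17, limma adjusted p = 0.0061). Lhx2, which holds back NFI-driven gliogenesis in the hippocampus, fell by 0.74 on the log2 scale. Pou3f2 had means of 91.4 in E14.5 cells and 90.4 in E11.5 cells and did not pass.

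Glial genes that NFI proteins are reported to activate were mostly higher in E14.5 cells: 8 of 9 tested were higher and 0 lower. The shares over all genes were 14.3% higher and 13.6% lower. The median log2 difference of the list was 2.52. Slc1a3, the astroglial glutamate transporter GLAST, had 4064 and 4114 in E14.5 cells against 530 and 644 in E11.5 cells (2.78 ± 0.13), with 4 of 4 tested probe sets higher. The water channel Aqp4 had 573 and 470 in E14.5 cells against 21.9 and 20.7 in E11.5 cells, with both E11.5 values below the filter. It passed the filter only through the E14.5 arrays, and its difference of 3.96 ± 0.21 ran from 3.15 to 4.51 with the pseudocount. The folate enzyme Aldh1l1 rose by 3.32 ± 0.18 and Zcchc24, a gene found as an NFIA target in spinal cord, by 2.53 ± 0.13. These values placed Slc1a3 and Zcchc24 beside Nfix in size. Mmd2, another target found with NFIA in spinal cord, rose by 2.52 ± 0.20.

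The intermediate filament gene Gfap had 150 and 75 in E14.5 cells against 23.8 and 20.6 in E11.5 cells (1.77 ± 0.34, limma adjusted p = 0.0039). Its E11.5 values lay below the filter, as did those of S100b, so both were tested only because of the E14.5 arrays. The Gfap difference ran from 1.22 to 2.18 with the pseudocount. S100b, a calcium-binding protein of astrocytes, had 59.3 and 39.5 in E14.5 cells against 18.0 and 4.25 in E11.5 cells (1.42 ± 0.42, limma adjusted p = 0.035), and ran from 0.79 to 2.22 with the pseudocount. That call was lost without E14.5 replicate 1 (1.19), without E11.5 replicate 2 (0.99), with the smaller pseudocount and with no filter. Fabp7, the radial glial lipid-binding protein, was already bright in E11.5 cells: 10387 and 11976 in E14.5 cells against 7661 and 7196 in E11.5 cells (0.59 ± 0.12, limma adjusted p = 0.0059). Its call was lost without E14.5 replicate 2 (0.48), with quantile normalization (0.12), with no filter and with no variance trend, and its direction turned as deposited (-0.19). Apcdd1, an inhibitor of Wnt signalling that is also an NFIA target in spinal cord, was the exception: it had 355 and 260 in E14.5 cells against 347 and 384 in E11.5 cells (-0.26 ± 0.18), and 0 of its 5 tested probe sets were higher.

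The 4 genes listed as repressed by NFI proteins in neural progenitors gave 1 lower, 0 higher and 3 not past the test. Over all genes 13.6% were lower and 14.3% higher, and 1 of 4 is too few to set apart from that share. The place of Insc on the list is in doubt, so the counts are those of the list as drawn up. Ezh2, the methyltransferase of Polycomb repression, had 1473 and 1463 in E14.5 cells against 2234 and 1998 in E11.5 cells (-0.52 ± 0.12, limma adjusted p = 0.012); the call was lost without E14.5 replicate 2 (-0.52) and with no variance trend. Hes1, a Notch target (-0.24 ± 0.17), and Bbx (-0.32 ± 0.18) did not pass. Insc, a regulator of spindle orientation, had 48.9 and 45.8 in E14.5 cells against 14.8 and 24.0 in E11.5 cells. It did not pass (0.92 ± 0.35, limma adjusted p = 0.085). Both E11.5 values lay below the filter, so Insc was tested only because of the E14.5 arrays. Whether NFIX represses or activates Insc was not tested, so its direction is not read as that of a repressed gene. With no variance trend Insc passed as higher, so that setting gave 1 higher and 0 lower for the list.

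Of 5 genes that NFI proteins are reported to activate in cerebellar granule neurons, 3 were tested, 2 were lower and 1 did not pass. The shares over all genes were 13.6% lower and 14.3% higher. Cdh2, N-cadherin, had 1359 and 1306 in E14.5 cells against 2399 and 2146 in E11.5 cells (-0.76 ± 0.12), and the ephrin ligand Efnb1 had 500 and 494 in E14.5 cells against 788 and 769 in E11.5 cells (-0.63 ± 0.13). The adhesion molecule Cntn2 did not pass at its representative probe set (-0.32 ± 0.32), though 1 of its 3 tested probe sets was lower. The GABA receptor subunit Gabra6 was below the filter, with means of 24.7 in E14.5 cells and 17.9 in E11.5 cells, and Etv1 had no probe set annotated to it alone.

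**Figure D4:**
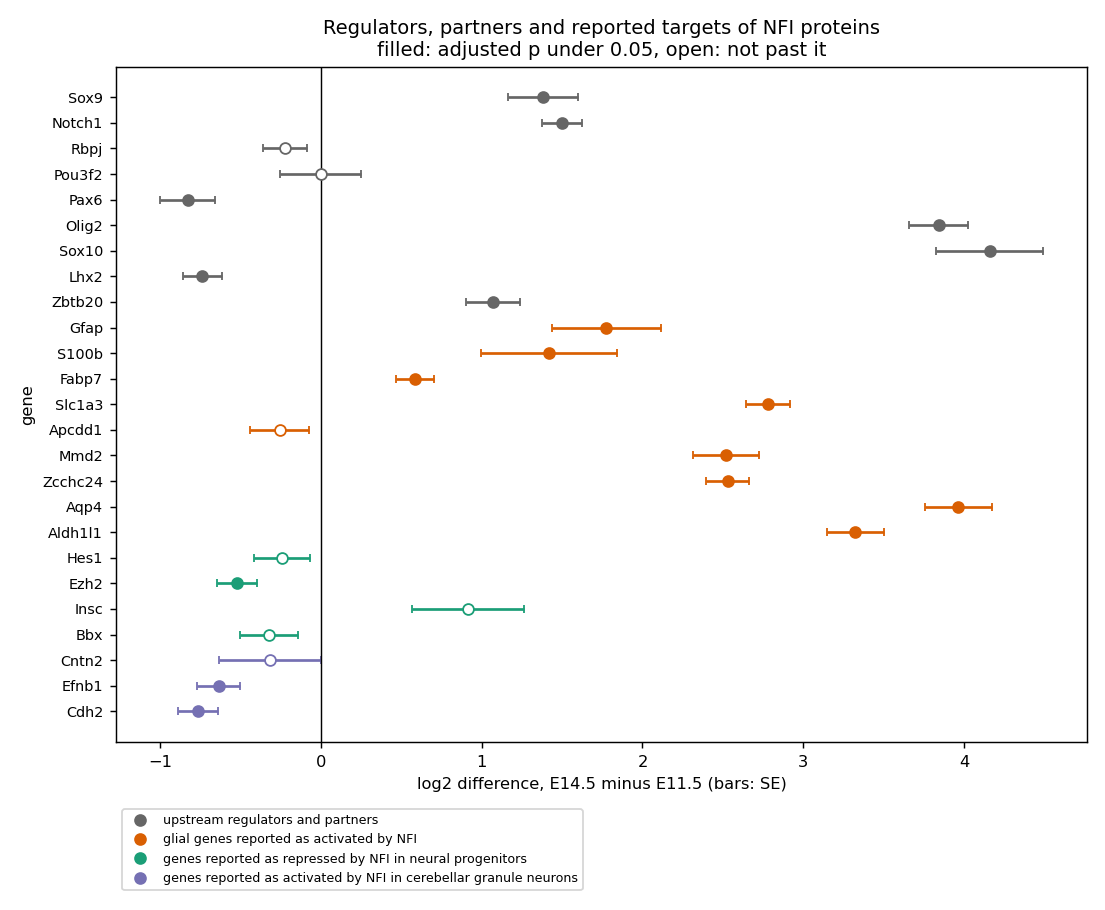
Log2 difference, E14.5 minus E11.5, with SE for the representative probe sets of 25 tested genes in 4 lists. These are regulators and partners of NFI proteins, glial genes they are reported to activate, genes listed as repressed and genes reported as activated in cerebellar granule neurons. The place of Insc among the genes listed as repressed is in doubt. Filled circles passed an adjusted p of 0.05; the glial genes run from -0.26 for Apcdd1 to 3.96 for Aqp4.

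The cultures also differed in markers of cell types, some lists being higher and others lower in E14.5 cells. The part of cell types in the NFI differences was not tested. In RNA from whole cultures, more cells of a type and more RNA per cell cannot be told apart. The marker counts here and in the next paragraph stand beside shares of 14.3% higher and 13.6% lower over all genes. Oligodendrocyte precursor markers were higher for 6 of 6 tested, with summed scaled signals of 16720 to 19049 in E14.5 cells against 622 to 860 in E11.5 cells. Astrocyte markers were higher for 6 of 6, with sums of 6596 to 10149 against 700 to 800, E14.5 first. Microglia and macrophage markers were higher for 5 of 5 tested of 6, with sums of 1217 to 1273 against 145 to 170. Several of these markers had E11.5 means below the filter: Cspg4 (6.92), Gpr17 (2.03), C1qa (6.17), C1qb (18.8) and C1qc (6.23). The same held for Gfap, Aqp4 and S100b. All of these were tested only because of the E14.5 arrays, and Aif1 was below the filter. Neuron markers were lower for 5 of 6, with sums of 3686 to 3985 in E14.5 cells against 10262 to 10794 in E11.5 cells. The exception, Map2, had 2825 and 2924 in E14.5 cells against 2352 and 2581 in E11.5 cells and did not pass. Map2 made up most of the E14.5 sums. Tbr1, with an E14.5 mean of 23.7, passed the filter only through the E11.5 arrays. Neural progenitor and radial glia markers, which define the labelled cell type, were present in both groups; 3 of 6 were higher and 1 lower, with sums of 26653 to 28411 in E14.5 cells against 18121 to 19819 in E11.5 cells. The forebrain markers Emx2 and Lhx2 were detected in both groups and lower in E14.5 cells, with sums of 1419 to 1469 in E14.5 cells against 2371 to 2493 in E11.5 cells.

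Markers of other cells that the cultures could hold were read as well. Meningeal and mesenchymal markers were lower for 3 of 5, with sums of 526 to 588 in E14.5 cells against 1091 to 1128 in E11.5 cells. The erythroid markers Hbb-y and Hba-x, with E14.5 means of 12.3 and 8.87, passed the filter only through the E11.5 arrays. Erythroid markers were lower for 2 of 2 tested of 4, with sums of 35.9 to 53.2 in E14.5 cells against 383 to 798 in E11.5 cells. That count was 1 with the smaller pseudocount, with no filter, with the stricter filter, with no variance trend, without E14.5 replicate 1 and without E11.5 replicate 1. Endothelial markers went in both directions, with sums of 134 to 156 in E14.5 cells against 101 to 127 in E11.5 cells. Of 4 listed, 2 were tested and 1 was higher, Plvap, with means of 91.2 in E14.5 cells and 10.0 in E11.5 cells. Plvap passed the filter only through the E14.5 arrays. Means were lower in E14.5 cells for Kdr (45.5 against 72.9), which did not pass. They were also lower for the untested Cdh5 (3.65 against 21.8) and Pecam1 (4.81 against 9.44). No marker was listed at 0, and Cdh5, Pecam1 and Alas2 had group means of at most 21.8.

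The genes whose profiles over the 4 arrays lay closest to those of the members, by Euclidean distance between centred log2 signals among 12268 other named genes, differed from member to member. Closest to Nfix were Slc1a3 (distance 0.122), Arap2 (0.134) and the cholesterol exporter Abca1 (0.184). Slc1a3 is also on the list of reported NFI targets above, and it was among the closest 3 of Nfix under each of the 5 other scalings and pseudocounts tried. Arap2 had means of 668 in E14.5 cells and 88.2 in E11.5 cells, and Abca1 means of 1601 in E14.5 cells and 210 in E11.5 cells. Closest to Nfia were the kinases Map3k11 and Cdk19 and the Rac activator Prex1, at distances of 0.023 to 0.034, and closest to Nfib were the mitochondrial pyruvate carrier Mpc1, Fyco1 and Ppfibp1, at 0.033 to 0.057. Nfic had no neighbour nearer than 0.31 (Pmel, Cfap61 and Nod1). Over 4 arrays such likeness is mostly the size of the group difference, and it is a description only; most of these names changed with the setting. Nfib kept only Mpc1 of its 3 in 4 of the 5 other settings, Nfia kept only Prex1 with quantile normalization, and Nfic kept 0 of 3 with the larger pseudocount.

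The genes next to the members on the chromosomes were read as well, taking the 2 nearest named protein-coding genes on each side in GRCm38.p6. Of 16 such neighbours 13 were tested: 3 were higher, 2 lower and 8 did not pass, beside shares of 14.3% higher and 13.6% lower over all genes. With no variance trend, and without E14.5 replicate 2, 1 was higher and 1 lower (Cyp2j9 and Celf5). None of the 4 neighbours of Nfix on chromosome 8 passed: Trmt1 (-0.23), Lyl1 (-0.40), Dand5 (0.39) and Gadd45gip1 (-0.19). Their intervals together ran from -1.21 to 1.18, below the interval of 2.44 to 3.03 for Nfix. Lyl1 (means of 24.8 in E14.5 cells and 36.1 in E11.5 cells) passed the filter only through the E11.5 arrays. Dand5 (33.1 and 22.1, E14.5 first) passed it only through the E14.5 arrays. These dim genes set both ends of that range, and the pseudocount shrinks their differences. On chromosome 4, Cyp2j9 beside Nfia had 182 and 135 in E14.5 cells against 17.9 and 16.8 in E11.5 cells (2.49 ± 0.27). Both E11.5 values lay below the filter, which it passed only through the E14.5 arrays, and the difference ran from 1.75 to 3.06 with the pseudocount. Tm2d1 and Patj did not pass and Cyp2j5 was below the filter. Beside Nfib, Zdhhc21 was higher (0.72 ± 0.16) and Mpdz lower (-0.52 ± 0.16), while Lurap1l did not pass and Cer1 was below the filter. The call of Zdhhc21 was lost when E14.5 replicate 2 was left out (0.55), and that of Mpdz without E14.5 replicate 2 (-0.36) or E11.5 replicate 2 (-0.42). With no variance trend both lost their calls, and Mpdz also did with median scaling, quantile normalization and no filter. On chromosome 10, Celf5, a neuronal RNA-binding protein gene beside Nfic, had 218 and 128 in E14.5 cells against 1430 and 1326 in E11.5 cells (-2.95 ± 0.21), opposite in direction to Nfic. Ncln was higher (0.50 ± 0.16, limma adjusted p = 0.048), a call lost in every fit that left out 1 array (0.42 to 0.59). That call was also lost with median scaling, the smaller pseudocount, no filter and no variance trend. Dohh did not pass, and Smim24 had no probe set annotated to it alone.

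**Figure D5:**
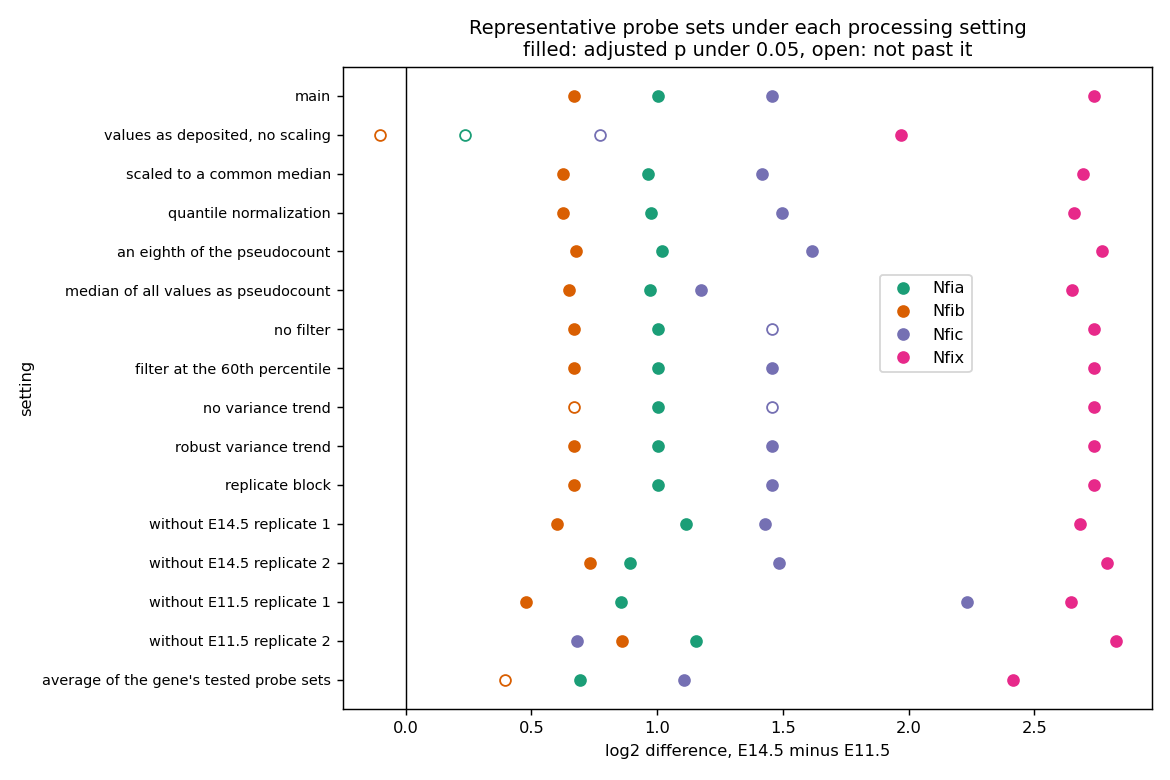
Log2 difference, E14.5 minus E11.5, of the representative probe set of each NFI gene under each processing setting; filled circles passed an adjusted p of 0.05 in that setting. Nfix stays between 1.97 and 2.82 and passed in each, Nfia lies between 0.24 and 1.15, Nfib between -0.10 and 0.86, and Nfic between 0.68 and 2.23.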

How the data were processed

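The authors deposited 1 linear intensity per probe set and array, made with the maker's program GCOS according to the submitters' processing notes; its settings are not known here, and detection calls were not used. No genome build is named, so array positions are not given. Groups and replicate numbers came from the sample titles. Control probe sets (64) were set aside, which left 45037; the annotation named 1 gene for 34945, several for 932 and none for 9160. Trimmed means (2% off each end) spanned 2.43-fold, so each array was scaled to 174 (factors 1.13 and 1.68 for E14.5, 0.932 and 0.691 for E11.5). Probe sets with a mean of at least 27.3, the 40th percentile, were tested, and a pseudocount of 12.8, the 25th percentile, was added before log2; it shrinks the differences of dim probe sets. Differences, E14.5 minus E11.5, came from limma 3.58.1 run under R 4.3.3 (lmFit, eBayes with a variance trend, 2 residual and 7.99 prior degrees of freedom), with Benjamini-Hochberg adjustment over 27022 probe sets. The fit was tested on simulated data.

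Across tested probe sets, log2 signals correlated at 0.969 between the E14.5 arrays, 0.975 between the E11.5 arrays and 0.885 to 0.909 between groups. Arrays hold no counts, and their number limits the precision. Other scalings, pseudocounts, filters, variance models and left-out arrays were tried. Named genes are all probe sets of the 4 members, the genes of 4 lists (up to 4 risen or fallen genes a list and all that did not pass), and the 3 closest profiles of each member. Olig2, Sox10, Sox9, Notch1, Aqp4, Aldh1l1, Slc1a3, Zcchc24 and the granule-neuron genes fall under this rule; Zbtb20, Pax6, Lhx2, Gfap, S100b, Fabp7 and Mmd2 were added after their values were seen to complete their lists, and chromosomal neighbours by position. Members and lists were chosen with earlier results of these data known.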

Additional observations from a re-analysis of the deposited data

How the results depend on the processing

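Nfix at its brightest probe set passed under all 15 alternatives, at 1.97 to 2.82, and Nfia kept its direction in all and its call in all but 1. With values as deposited, with no scaling, the median of all tested probe sets moved to -0.71: 3 NFI and 400 of all probe sets were higher, Nfia (0.24) and Nfic (0.77) no longer passed, and Nfib turned to -0.10. Also turned were 1421162_a_at (-0.25), 1421163_a_at (-0.14) and 1427733_a_at (-0.35) of Nfia, 1427680_a_at (-0.30), 1434102_at (-0.23), 1438244_at (-0.63) and 1448288_at (-0.28) of Nfib, and Fabp7 (-0.19), Tm2d1 (-0.62), Lurap1l (-0.45), Zdhhc21 (-0.041), Dohh (-0.72) and Ncln (-0.24). Nfic kept its value of 1.46 but lost its call with no filter and with no variance trend, under which Nfib (0.67) lost its call too and 1919 of all probe sets were higher and 2097 lower; Ezh2 and Efnb1 also lost their calls there. Averaged over probe sets Nfib (0.39) did not pass.

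Leaving out 1 array at a time gave 8 to 14 NFI probe sets higher and 2256 to 3148 of all probe sets; the representatives of Nfia (0.85 to 1.15), Nfib (0.48 to 0.86), Nfic (0.68 to 2.23) and Nfix (2.65 to 2.82) kept their calls. Signs turned for 1416293_at (range -1.06 to 0.12), 1438244_at (-0.17 to 0.34, with -0.035), Pou3f2 (-0.24 to 0.24, with 0.14), Tm2d1 (-0.16 to 0.41), Dohh (-0.15 to 0.19, with -0.12), Patj (0.084 and 0.26), Lurap1l (-0.097 to 0.53, with -0.076) and for Nfic minus Nfia (-0.47 to 1.38) and Nfic minus Nfib (-0.18 to 1.75); none of these had passed a test. Pou3f2 also turned with quantile normalization (0.057) and the larger pseudocount (0.0019), and Dohh with median scaling (-0.019).

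Same-numbered arrays deviated from their group means with a correlation of 0.0041, and the labels do not say that the numbers pair them; with a replicate block 13 NFI probe sets were higher and 0 lower, against 3312 and 3861 of all. The causes of these changes were not tested.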
